A study of Mus musculus with 12 samples.

Results

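Resmetirom was compared with no drug in the livers of C57BL/6J mice with diet-induced MASH (metabolic dysfunction-associated steatohepatitis, a fatty liver disease with inflammation). The comparison took 6 of the series' 12 liver RNA libraries. In 3 of them, RE1, RE8 and RE9, the mouse had received a high-fat diet for 8 weeks to establish the model and then resmetirom by mouth over 4 weeks, at 3 mg/kg. The other 3, M2, M6 and M7, came from mice with the same model that were given only the vehicle, 0.5% sodium carboxymethylcellulose (CMC-Na), over those 4 weeks. The remaining 6 libraries, 3 from chow-fed control mice on the same vehicle and 3 from MASH mice dosed over the same time with 100 mg/kg of Eleutheroside E (EE), entered the shared estimate of spread and are quoted only for their levels. The diet's composition, the animals' sex and age, and the vehicle of the drug-treated mice are not stated in the labels. Each library is labelled as a replicate of its group, with no statement that it came from a separate mouse, so the p-values measure the spread between these samples, which may be technical. Of the 28036 genes in the deposited table, 13988 passed the low-count filter and were tested.

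Resmetirom is a liver-directed agonist of thyroid hormone receptor beta, the main thyroid hormone receptor of hepatocytes. The receptor binds DNA as a partner of a retinoid X receptor, usually at repeats of a short half-site, and exchanges corepressors for coactivators when hormone or agonist binds. In the liver this pathway is known for inducing deiodinase 1, mitochondrial and lipogenic enzymes, and genes of cholesterol uptake and bile acid synthesis, and for lowering circulating cholesterol and liver fat.

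The 6 libraries held 17297864 to 21033066 estimated counts, and 1 CPM (a TMM-scaled rate per 1e6 counts) stood for 13.35 to 25.96 counts. Major urinary protein (Mup) genes took 8.90%, 35.7% and 16.0% of the counts in RE1, RE8 and RE9 and 3.33% to 10.8% in the MASH livers. The resmetirom livers differed more among themselves than the MASH livers did, with a median SD of log2 CPM of 0.40 against 0.17. Across genes, which are not independent replicates, log2 CPM correlated at 0.917 to 0.958 between resmetirom livers and at 0.985 to 0.988 between MASH livers. The 13 hepatocyte markers, such as albumin, summed to 76695, 119134 and 96996 CPM in RE1, RE8 and RE9 and to 91705 to 106863 CPM in the MASH livers, which fits the labelled tissue. In whole liver, fewer cells of a type and less RNA per cell cannot be told apart.

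Resmetirom livers differed from MASH livers in 93 genes, 47 of them higher and 46 lower (edgeR quasi-likelihood test, Benjamini-Hochberg adjusted p below 0.05). That is 0.665% of the genes tested, 0.336% higher and 0.329% lower. For all 93, the 3 resmetirom livers lay wholly above or wholly below the 3 MASH livers, a separation seen in 23.9% of all genes tested, 11.6% higher and 12.3% lower. The test and the separation use the same values, so the separation is not further support for the calls. Among the named genes, the neurotrophin receptor Ntrk2 and the ornithine-degrading enzyme Oat had the smallest adjusted p in the upward and downward direction. The number of calls rested on the libraries in the fit. It was 0 when only the 6 compared libraries were fitted, where 1935 genes had an unadjusted p below 0.05 and DESeq2 called 507. It was 5, 1 and 4 without M2, M6 or M7, and 163, 32 and 169 without RE1, RE8 or RE9. Leaving out a library outside the comparison also moved it, to 431 and 59 without control 1 or 2 and to 42, 46 and 24 without EE 1, 2 or 3. Control 1 had 35.4% of its counts in mitochondrial genes, against 4.26% and 4.38% in controls 2 and 3. Its TMM factor was 0.509, and it is part of every control mean given below. The part of this library's makeup in the 431 calls was not tested. On all 12 libraries DESeq2 called 657 genes, 92 of the 93 among them. The direction of all 93 was the same in each of these fits in which they were tested.

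Ntrk2 (ENSMUSG00000055254) encodes TrkB, the receptor for brain-derived neurotrophic factor. Its level was 0.993, 2.38 and 3.75 CPM in M2, M6 and M7 and 49.8, 66.5 and 66.7 CPM in RE1, RE8 and RE9. The resmetirom values lay close together and far above each MASH liver, and the EE and control livers were also low, at 0.377 ± 0.202 and 1.32 ± 0.693 CPM (SD, n = 3). Ntrk2 rose by 4.67 (SE 0.48) log2 units, with an adjusted p of 0.00452 by edgeR. Of the 12 fits that each left out 1 library, 11 kept the call, the exception being the fit without M6.

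Oat (ENSMUSG00000030934), a mitochondrial enzyme of pericentral hepatocytes, those around the central vein, stood at 619, 785 and 1228 CPM in M2, M6 and M7. Its level in RE1, RE8 and RE9 was 94.6, 149.5 and 171 CPM, with all 3 below the lowest MASH liver. The difference was -2.66 (SE 0.31) log2 units, with an adjusted p of 0.0089 by edgeR, and the call was likewise lost only without M6. EE livers held 642 ± 93.0 CPM and control livers 1000.0 ± 26.7 CPM (SD, n = 3). Of 16 pericentral hepatocyte markers, Oat among them, 11 had a negative difference, 5 lay wholly below the MASH livers (12.3% of all genes tested) and only Oat was called. Their sum was 12162 to 15869 CPM in the MASH livers and 3257, 10039 and 10152 CPM in RE1, RE8 and RE9, lowest in RE1, and its part in the lower level of Oat was not tested. The plot of 6 genes in all 12 livers shows both genes beside 4 others described below.

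**Figure D1:**
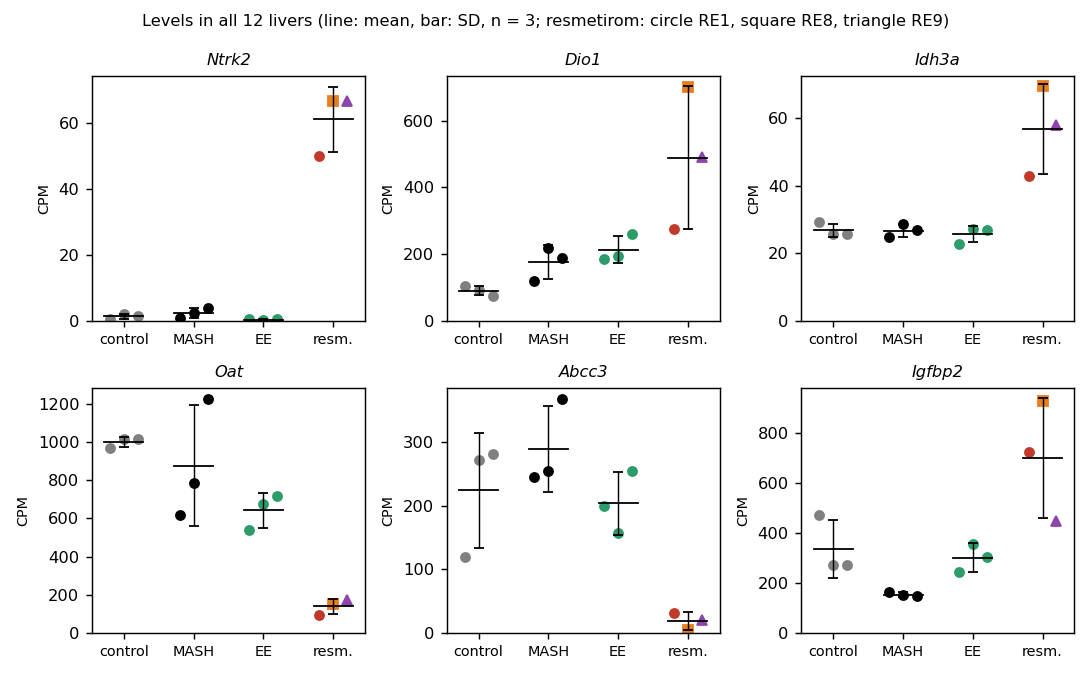
Level in CPM (vertical axis, linear, from 0) of 6 genes in each of the 12 livers, by group, with the group mean as a line and the SD as a bar (n = 3). Resmetirom livers stand above every MASH liver for Ntrk2, Dio1, Idh3a and Igfbp2 and below every MASH liver for Oat and Abcc3, while RE1, RE8 and RE9 differ widely for Dio1 and Igfbp2.

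Because a receptor that binds DNA is the drug's target, the 250 bases before the start of 4 called genes are shown, from RefSeq's table on GRCm38.p6. Ntrk2 and Oat are shown as the leading genes, and Cdhr5, a brush-border cadherin, and Rdh16, a retinol dehydrogenase, as 1 higher and 1 lower gene chosen after a search had found the half-site AGGTCA there. Capitals mark that half-site, or TGACCT where it reads on the opposite strand.
Ntrk2, chr13:58806319-58806568, plus strand: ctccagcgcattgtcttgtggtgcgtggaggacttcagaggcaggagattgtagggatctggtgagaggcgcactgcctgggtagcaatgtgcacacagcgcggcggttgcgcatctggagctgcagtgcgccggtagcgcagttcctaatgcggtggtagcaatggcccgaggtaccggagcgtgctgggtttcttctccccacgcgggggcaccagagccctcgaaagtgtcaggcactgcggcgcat
Oat, chr7:132576399-132576648, minus strand: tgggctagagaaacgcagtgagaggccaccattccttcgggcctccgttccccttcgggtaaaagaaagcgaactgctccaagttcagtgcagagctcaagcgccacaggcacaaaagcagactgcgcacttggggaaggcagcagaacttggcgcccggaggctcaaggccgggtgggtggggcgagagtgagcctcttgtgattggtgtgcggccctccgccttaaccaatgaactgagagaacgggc
Cdhr5, chr7:141276787-141277036, minus strand: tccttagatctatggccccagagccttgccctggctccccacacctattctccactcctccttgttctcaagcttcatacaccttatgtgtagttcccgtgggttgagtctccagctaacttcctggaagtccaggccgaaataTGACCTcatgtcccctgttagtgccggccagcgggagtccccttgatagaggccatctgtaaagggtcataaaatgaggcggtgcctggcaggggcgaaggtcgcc
Rdh16, chr10:127800903-127801152, plus strand: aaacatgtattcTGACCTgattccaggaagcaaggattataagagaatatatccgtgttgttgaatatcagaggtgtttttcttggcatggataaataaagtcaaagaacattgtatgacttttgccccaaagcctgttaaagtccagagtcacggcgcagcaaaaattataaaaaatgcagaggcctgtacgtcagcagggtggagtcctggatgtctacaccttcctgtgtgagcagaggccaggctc
The half-site reads on the opposite strand in both genes that hold it, at 106 to 101 bases before the start of Cdhr5 and at 238 to 233 bases before that of Rdh16. No half-site falls in the windows of Ntrk2 and Oat, which says only that these letters are not there. Searched on both strands, AGGTCA was in 7 of 39 such windows of the higher genes (17.9%), in 7 of 46 of the lower genes (15.2%) and in 14% of all 32851 windows in the table. The full repeat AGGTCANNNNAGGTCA, which contains the half-site, was in 0 of the windows of called genes and in 0.0152% of all. The table matched 29 of the 47 higher and 33 of the 46 lower genes by symbol. Cdhr5 was 35.2, 38.8 and 41.6 CPM in the MASH livers and 76.8, 125 and 94.1 CPM in RE1, RE8 and RE9, and Rdh16 was 118, 106 and 161 against 30.8, 11.5 and 44.5 CPM. Both passed the edgeR test, with adjusted p-values of 0.0245 and 0.0392.

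The drug acts on the thyroid hormone receptor. Among 24 classical thyroid hormone induced liver genes, all tested, 17 had a positive log2 difference and 1 was called, Idh3a, a subunit of the citric acid cycle's isocitrate dehydrogenase, against 0.336% called higher over all genes tested. The list's median difference was 0.43 log2 units, against 0.06 over all genes tested. Per liver, the medians were 0.35, 0.40 and 0.54 in RE1, RE8 and RE9, against 0.02, -0.05 and -0.01 over all genes tested. On these TMM-scaled values the list leaned upward in each, and its medians per liver under other scaling were not tested. Idh3a stood at 24.7, 28.6 and 26.9 CPM in the MASH livers and at 43.0, 69.7 and 57.9 CPM in the resmetirom livers. It rose by 1.09 (SE 0.19) log2 units with an adjusted p of 0.0305 by edgeR, and EE and control livers were at the MASH level, at 25.6 ± 2.43 and 26.8 ± 2.02 CPM (SD, n = 3).

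Dio1, deiodinase 1, which converts thyroid hormone and is a standard liver readout of its receptor, was 119, 218 and 188 CPM in the MASH livers. In RE1, RE8 and RE9 it was 275, 702 and 491 CPM, all above the highest MASH liver, with RE1 nearest to it. The difference of 1.48 (SE 0.34) log2 units missed the threshold at an adjusted p of 0.074 (edgeR). It passed in only 2 of the 12 fits that each left out 1 library, at 0.021 without RE1 and at 0.042 without control 1. With only the 6 compared libraries, the adjusted p of Dio1 was 0.22 (edgeR). Bcl3, a nuclear partner of NF-kappa B, was similar, at 15.5, 13.4 and 16.1 against 35.7, 73.5 and 26.4 CPM and an adjusted p of 0.0567 by edgeR. Srebf2 and Scarb1, also in the list, lay above every MASH liver in each resmetirom liver too. With Idh3a, Dio1 and Bcl3 that made 5 of the 24 genes, against 11.6% of all genes tested. Several of the remaining classical targets moved in some livers only. Thrsp, a lipogenic regulator, was 183, 484 and 470.0 CPM in the MASH livers and 29.7, 500.0 and 376 CPM in the resmetirom livers, far below the others in RE1. Hr, a corepressor induced by the hormone in brain, was 1.89, 1.59 and 0.937 against 11.2, 4.50 and 1.33 CPM, high in RE1 and RE8 and within the MASH range in RE9. Me1, malic enzyme, was 282, 299 and 343 against 293, 289.5 and 557 CPM, higher in RE9 alone. Klf9, a transcription factor induced by thyroid and glucocorticoid hormones, overlapped, at 71.4, 75.1 and 43.4 against 81.0, 82.4 and 47.9 CPM.

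None of the 20 tested genes of the list of receptors, coregulators and hormone handling was called by edgeR. The other counts in that list were 3 higher and 3 lower at an unadjusted p below 0.05 by edgeR, 3 and 1 by DESeq2, 0 and 0 by limma voom and 3 and 1 by limma voom with quality weights. Over all genes tested the shares were 8.18% higher and 6.85% lower at an unadjusted p below 0.05 by edgeR, 2.32% and 2.37% by DESeq2, 0.265% and 0.386% by limma voom and 3.02% and 2.77% by limma voom with quality weights. Thrb, the drug's receptor, was 25.8, 17.9 and 15.5 CPM in the MASH livers and 9.51, 8.62 and 16.2 CPM in the resmetirom livers. RE1 and RE8 were below every MASH liver and RE9 was within their range, with a difference of -0.78 (SE 0.30) log2 units and an adjusted p of 0.25 by edgeR. Thra, the other receptor gene, was 13.0, 8.57 and 9.68 against 10.1, 13.4 and 12.5 CPM, with overlapping groups. Slco1b2, an uptake carrier for bile acids and hormones, lay below every MASH liver in all 3, at 751, 861 and 654 against 174, 213 and 378 CPM, with an adjusted p of 0.0946 by edgeR.

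Some of the genes that rose encode secreted proteins, and are set together here after their values were seen. Enho encodes adropin, a secreted peptide tied to energy balance, and rose from 3.78, 8.74 and 4.92 CPM in the MASH livers to 31.8, 91.6 and 34.0 CPM in RE1, RE8 and RE9. Dnaic1, a dynein gene, overlaps Enho on the opposite strand and rose with it, and their reads may not be separated because the strand setting of the counting is not given. Fndc5, the precursor of irisin, was 0.236, 0.293 and 0.351 against 2.31, 14.9 and 5.54 CPM. Igfbp2, a secreted binding protein of insulin-like growth factors, was 164, 149 and 146 CPM in the MASH livers and 723, 929 and 449 CPM in the resmetirom livers, a rise of 2.19 (SE 0.32) log2 units with an adjusted p of 0.0155 by edgeR. Control livers held 336 ± 115 CPM and EE livers 301 ± 57.1 CPM of Igfbp2 (SD, n = 3), levels between MASH and resmetirom. Tff3, a trefoil peptide of mucosal surfaces, was 3.97, 3.18 and 0.703 against 43.3, 144 and 31.6 CPM, highest in RE8. Wfdc16, a gene of a family of secreted protease inhibitors, had no count in any MASH liver and 6.43, 13.4 and 3.43 CPM in the resmetirom livers, at least 165-fold higher when the MASH group is set at 3 counts in all. Ptgds, which makes prostaglandin D, was 0.142, 0.126 and 0 against 1.58, 23.7 and 8.71 CPM, lowest in RE1. Each of these genes passed the edgeR test, with adjusted p-values from 0.0155 to 0.0379, and each stood above every MASH liver in all 3 resmetirom livers.

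The called higher genes also included 4 carriers and channels, grouped here after their values were seen. Slc13a5, which carries citrate into hepatocytes, was 0, 0.878 and 0.625 CPM in the MASH livers and 18.5, 11.7 and 7.95 CPM in RE1, RE8 and RE9. It rose by 4.63 (SE 0.78) log2 units, with an adjusted p of 0.0245 by edgeR, and was 1.42 ± 1.01 CPM in EE and 0.792 ± 0.0274 CPM in control livers (SD, n = 3). Slc22a7, an organic anion carrier, was 36.6, 52.9 and 35.2 against 139.9, 869 and 448 CPM, a rise of 3.54 (SE 0.53) log2 units with an adjusted p of 0.0155 by edgeR, smallest in RE1. Kcnk1, a potassium channel, was 0.426, 0.669 and 0.156 against 4.35, 35.2 and 6.51 CPM. Slc2a1, a glucose carrier, was 7.05, 5.81 and 5.54 against 13.4, 16.9 and 12.9 CPM. Kcnk1 and Slc2a1 passed at adjusted p-values of 0.0286 and 0.0481 by edgeR, and all 4 genes stood above every MASH liver in each resmetirom liver.

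Other genes that passed the test upward differ in their roles. Irs2, an adaptor of the insulin receptor, was 11.3, 9.66 and 9.25 CPM in the MASH livers and 18.9, 23.8 and 22.0 CPM in the resmetirom livers. Sort1, the sorting receptor sortilin that handles lipoproteins, was 16.4, 19.7 and 11.9 against 43.9, 44.5 and 58.8 CPM, with values in RE1, RE8 and RE9 that lay close together. Papss2, which makes the sulfate donor for sulfation, was 76.0, 99.9 and 118 against 188, 249 and 292 CPM, and Sult5a1, a sulfotransferase gene, was 2.08, 3.47 and 5.82 against 21.2, 55.0 and 18.7 CPM. Isyna1, which makes inositol phosphate from glucose phosphate, was 3.41, 3.18 and 3.83 against 17.9, 14.5 and 7.07 CPM. Akr1b3, an aldose reductase, was 7.09, 7.65 and 7.58 against 27.4, 21.8 and 13.6 CPM. Their adjusted p-values by edgeR ran from 0.0155 for Sort1 to 0.0498 for Akr1b3. Glcci1, a glucocorticoid-induced transcript, also rose, at 0.0946, 0.126 and 0.0781 against 0.616, 1.05 and 0.564 CPM (adjusted p 0.0275 by edgeR), all at about 1 CPM or less. Other higher genes were the adhesion gene Cdh1 (E-cadherin), the cell cycle inhibitor Cdkn2c, the BMP target Id1, the chemokine Ccl9 and the interferon-induced Bst2. Mup9, Ugt2b37 and H2-Q7 were also called higher, but each has near-identical family members, so the split of reads among them is uncertain.

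Some of the genes that fell act in lipid storage and lipid handling. Plin4, a perilipin that coats lipid droplets, was 8.42, 9.91 and 20.4 CPM in M2, M6 and M7 and 1.81, 0.974 and 0.871 CPM in RE1, RE8 and RE9. It fell by 3.37 log2 units (SE 0.56), with an adjusted p of 0.0245 by edgeR, and stood at 4.71 ± 2.96 CPM in EE and 5.59 ± 2.71 CPM in control livers (SD, n = 3). Fabp2, a fatty acid binding protein best known from the intestine, was 108, 103 and 103 against 39.9, 37.9 and 49.6 CPM, with an adjusted p of 0.0305 by edgeR. Control livers held 35.8 ± 6.69 CPM of Fabp2 (SD, n = 3), near the resmetirom level. Acsl1, which activates long-chain fatty acids, was 959, 931 and 951 against 301, 365 and 518 CPM. Chpt1, which makes phosphatidylcholine, was 194, 226 and 178 against 31.0, 57.1 and 58.0 CPM. Clstn3, whose locus also holds a fat-cell droplet protein, was 30.4, 40.4 and 48.8 against 4.85, 4.05 and 6.61 CPM. Acsl1, Chpt1 and Clstn3 passed at adjusted p-values of 0.0435, 0.0155 and 0.0245 by edgeR, each with all 3 resmetirom livers below the MASH livers.

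Cfd, the complement protease adipsin made mainly by fat cells, was 16.5, 40.7 and 20.1 CPM in the MASH livers and had no count in RE1, RE8 or RE9. That is at least 509.7-fold lower when the resmetirom group is set at 3 counts in all, with an adjusted p of 0.0155 by edgeR. EE livers held 13.0 ± 10.1 CPM and control livers 2.37 ± 0.511 CPM of Cfd (SD, n = 3). Of 8 adipocyte markers, 6 were found in the table and 3 tested, and the defining markers Plin1, Adig and Retn were at or near 0 in all 6 livers. Fabp4, also tested, was detected and overlapped between the groups. It was 6.62, 6.48 and 7.26 CPM in the MASH livers and 8.74, 4.35 and 2.00 CPM in RE1, RE8 and RE9. The summed adipocyte markers came to 1823 to 2399 CPM in the MASH livers and to 302, 1440.0 and 625 CPM in RE1, RE8 and RE9, nearly all of it Car3, an enzyme that hepatocytes also make in quantity.

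Other genes that fell, set together after their values were seen, encode carriers, a water channel and enzymes. Abcc3, which exports conjugated bile acids and drugs, was 246, 254 and 367 CPM in the MASH livers and 31.8, 4.50 and 19.4 CPM in RE1, RE8 and RE9. It changed by -3.95 (SE 0.60) log2 units, with an adjusted p of 0.0155 by edgeR, while EE and control livers held 204 ± 49.3 and 224 ± 90.5 CPM (SD, n = 3). Aqp4, a water channel, was 9.18, 7.44 and 6.75 against 1.04, 0.0749 and 0.871 CPM. Slc22a15, a carrier of zwitterions, was 14.3, 10.5 and 11.6 against 3.58, 2.85 and 4.10 CPM. Uox, urate oxidase, was 1250.0, 1352 and 1261 against 418, 360.4 and 550.1 CPM, and Ugp2, which makes the sugar donor of glycogen, was 369.7, 370.3 and 405 against 123, 159.7 and 184 CPM. Nox4, an oxidase that produces hydrogen peroxide, was 32.6, 39.3 and 23.7 against 7.90, 12.5 and 10.2 CPM and kept its call in 10 of the 12 fits that each left out a library. Cyp2c23, an arachidonic acid epoxygenase, was 144, 189 and 135 against 63.1, 33.0 and 24.8 CPM. Adjusted p-values of these 6 genes by edgeR ran from 0.0155 to 0.0498, and their groups did not overlap. Olig1, a transcription factor of the nervous system, was 12.3, 14.1 and 13.9 against 2.43, 3.45 and 3.02 CPM with an adjusted p of 0.0106 by edgeR. Ces1f, Cyp2b9 and Mup21 also fell but have close paralogs. Mup21 was 86.5, 201 and 82.5 against 1.58, 9.44 and 1.44 CPM, the opposite direction to most of its family in RE8. Hectd2os, an antisense transcript, was 79.0, 46.0 and 44.2 against 0.231, 3.37 and 1.84 CPM and cannot be separated from the gene on the other strand with the sources used here. Counts assigned to that gene, Hectd2, averaged 0.878 CPM in the MASH livers and 0.735 CPM in the resmetirom livers.

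In the list of lipid droplets and lipid uptake, 22 genes were tested, 16 had a negative difference, and Plin4 and Fabp2 were called lower, 2 of 22 against 0.329% of all genes tested. The median was -0.65 log2 units, and -0.73, -0.75 and -0.61 in RE1, RE8 and RE9. In 11 of the 22, all resmetirom livers lay below all MASH livers, against 12.3% of all genes tested. Cidea, a droplet fusion protein, was 1.23, 12.6 and 5.43 against 0.347, 0 and 0.0513 CPM (adjusted p 0.0795 by edgeR) and Cidec 13.2, 39.4 and 55.8 against 12.1, 0.899 and 1.49 CPM (adjusted p 0.18). Cd36, the fatty acid carrier, was 131, 98.2 and 139 against 69.9, 9.29 and 21.5 CPM, nearest to the MASH livers in RE1, and Pparg, which induces droplet genes, was 9.98, 18.5 and 16.9 against 9.01, 2.32 and 4.82 CPM. Pnpla2, the triglyceride lipase ATGL, was on the other side, at 45.1, 58.5 and 68.1 against 89.8, 147 and 113 CPM, above every MASH liver (adjusted p 0.0946 by edgeR).

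Of 31 genes of fatty acid oxidation and PPAR alpha targets, all tested, 26 had a negative difference and 14 lay wholly below the MASH livers, against 12.3% of all genes tested, while edgeR called 0. The other counts were 1 higher and 9 lower at an unadjusted p below 0.05 by edgeR, 0 and 6 by DESeq2, 0 and 2 by limma voom and 0 and 5 by limma voom with quality weights, where the shares of all genes that were lower were 6.85% unadjusted and 2.37%, 0.386% and 2.77% by the other tools. The median was -0.37 log2 units and -0.60, -0.74 and -0.14 in RE1, RE8 and RE9, smallest in RE9. Vnn1, a pantetheinase and PPAR alpha target, was 117, 109 and 134 against 22.0, 3.52 and 30.6 CPM and missed the threshold at 0.0523 by edgeR. Cyp4a10, a fatty acid hydroxylase with close paralogs, was 604, 345 and 555 against 126, 9.59 and 47.0 CPM, with an adjusted p of 0.0949. Acadm, of mitochondrial oxidation, was 363, 333 and 342 against 177, 93.2 and 169 CPM, with an adjusted p of 0.0567. Among 22 genes of fatty acid and triglyceride synthesis edgeR called 0, and the other counts were 1 higher and 4 lower at an unadjusted p below 0.05 by edgeR, 0 and 2 by DESeq2, 0 and 0 by limma voom and 0 and 1 by limma voom with quality weights. The medians of that list differed by liver, at -0.83, -0.44 and 0.20 in RE1, RE8 and RE9. Scd1, the stearoyl desaturase, shows the spread, at 6513, 4972 and 9167 CPM in the MASH livers and 1198, 608 and 5466 CPM in the resmetirom livers.

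Cholesterol synthesis genes leaned upward. Of 25 tested, 22 had a positive difference and 7 lay wholly above the MASH livers, against 11.6% of all genes, with 0 called by edgeR. The other counts were 11 higher and 0 lower at an unadjusted p below 0.05 by edgeR, 3 and 0 by DESeq2, 0 and 0 by limma voom and 13 and 0 by limma voom with quality weights, where the shares of all genes that were higher were 8.18% unadjusted and 2.32%, 0.265% and 3.02% by the other tools. The medians per liver were 0.09, 0.56 and 1.03, smallest in RE1 and largest in RE9. Mvk, mevalonate kinase, was 25.3, 28.3 and 22.2 against 39.1, 71.9 and 74.4 CPM, with an adjusted p of 0.0571 by edgeR, and Dhcr7, which makes cholesterol from its last precursor, was 104, 114 and 115 against 143, 259 and 274 CPM, with an adjusted p of 0.0949. Scarb1, the HDL receptor, was 171, 145 and 168 against 201, 265 and 244 CPM, above every MASH liver in each resmetirom liver, with an adjusted p of 0.243 by edgeR. Cyp7a1, the rate-limiting enzyme of bile acid synthesis, was 13.7, 77.0 and 59.7 against 132, 56.9 and 177 CPM, above the MASH livers in RE1 and RE9 and among them in RE8. Of 20 bile acid genes edgeR called 0, and the other counts were 3 higher and 3 lower at an unadjusted p below 0.05 by edgeR, 1 and 1 by DESeq2, 0 and 0 by limma voom and 1 and 1 by limma voom with quality weights. The shares of all genes that were lower were 6.85% unadjusted and 2.37%, 0.386% and 2.77% by the other tools. Wholly above the MASH livers lay 3 of the 20 and wholly below them 2, against 11.6% and 12.3% of all genes tested. Cyp2c70, which makes the muricholic acids of mice, was 184, 178 and 143 against 465, 696 and 531 CPM, at least 1 log2 unit above every MASH liver in each, with an adjusted p of 0.0803 by edgeR. Slc51b, a subunit of the basolateral bile acid exporter, was 0.0946, 0.0418 and 0.195 against 2.12, 7.57 and 2.56 CPM, with an adjusted p of 0.063 by edgeR.

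Whether a change held in each of RE1, RE8 and RE9 was read liver by liver on log2(CPM + 0.5), as a distance of at least 1 log2 unit beyond every MASH liver in genes with a mean of at least 1 CPM. By that measure 42 genes were higher in all 3 livers and 49 lower, 0.3% and 0.35% of the genes tested. The edgeR test had called 26 of the 42 and 28 of the 49. Taken without the minimum on the mean, the 47 genes called higher met the distance in 33 cases in RE1, 47 in RE8 and 35 in RE9. The 46 called lower met it in 39, 41 and 32 cases. These tallies use the same values as the calls and only describe the livers. Ranked by the gap between the nearest livers of the groups, and leaving out unnamed gene models and pseudogenes, the leading higher genes were Ntrk2, Wfdc16, Tff3, Igha, Slc13a5, Kcnk1, Slc51b, Enho, Fndc5 and Ptgds. The leading lower genes were Cfd, Hectd2os, Mup21, Abcc3, Acot3, Aqp4, Clstn3, Plin4, Ces1f and Oat. The models left out with a wider gap than the last of each 10 were B430219N15Rik and ENSMUSG00000120233, higher, and ENSMUSG00000121505, lower. B430219N15Rik, an antisense transcript whose reads may not be separated from those of the other strand, was 0.284, 0.753 and 0.469 CPM in the MASH livers and 7.55, 36.6 and 29.4 CPM in the resmetirom livers. Of the 20 named, only Slc51b and Acot3 missed the edgeR threshold, at adjusted p-values of 0.063 and 0.0949, and their direction was the same in every fit run. The plot of these genes shows all 6 livers.

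**Figure D2:**
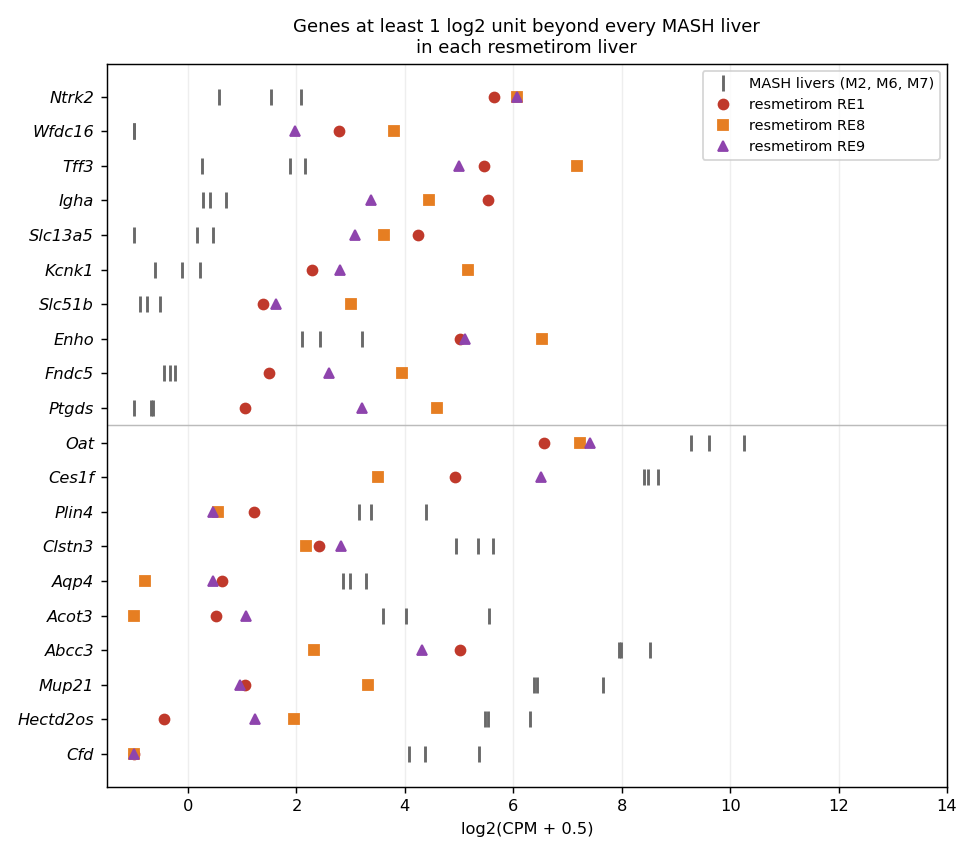
Level on log2(CPM + 0.5) (horizontal axis) of the 10 higher and 10 lower genes with the widest gap between groups, unnamed gene models and pseudogenes left out, with the 3 MASH livers as ticks and RE1, RE8 and RE9 as symbols. In every row the resmetirom symbols lie on 1 side of the ticks, and for Ntrk2 they lie close together while for Tff3 and Kcnk1 RE8 stands apart.

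Held changes without a call included Cyp2c70, Vnn1 and Cyp4a10, given above, and Cyp2c29, Hamp and Egr1. Cyp2c29, a drug-metabolising P450, was 688, 472 and 533 against 41.2, 72.8 and 155 CPM, with an adjusted p of 0.14 by edgeR. Hamp, hepcidin, which controls iron export, was 137, 230.3 and 187 against 531, 2344 and 779.6 CPM, with an adjusted p of 0.153 by edgeR. Egr1, an immediate early transcription factor, was 4.78, 4.93 and 4.96 against 24.5, 56.7 and 15.9 CPM, with an adjusted p of 0.15 by edgeR. In Hamp and Egr1, RE8 was the highest liver by a wide margin.

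Most large differences were seen in 1 liver. At the same distance of 1 log2 unit, 1369 genes were higher than every MASH liver in at least 1 resmetirom liver, of which 438 were so in RE1 only, 751 in RE8 only and 25 in RE9 only. Of 1139 lower genes, 241, 662 and 32 were so in RE1, RE8 or RE9 only. RE1 and RE8 also differed from each other in direction, with 27 genes higher in RE1 and lower in RE8 and 10 the other way. Across the genes tested, the difference from the MASH mean correlated at 0.249 between RE1 and RE8, 0.341 between RE1 and RE9, and 0.595 between RE8 and RE9 (Pearson's r), values that share the MASH livers and are given as a description. RE9 had the fewest genes of its own in both directions.

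**Figure D3:**
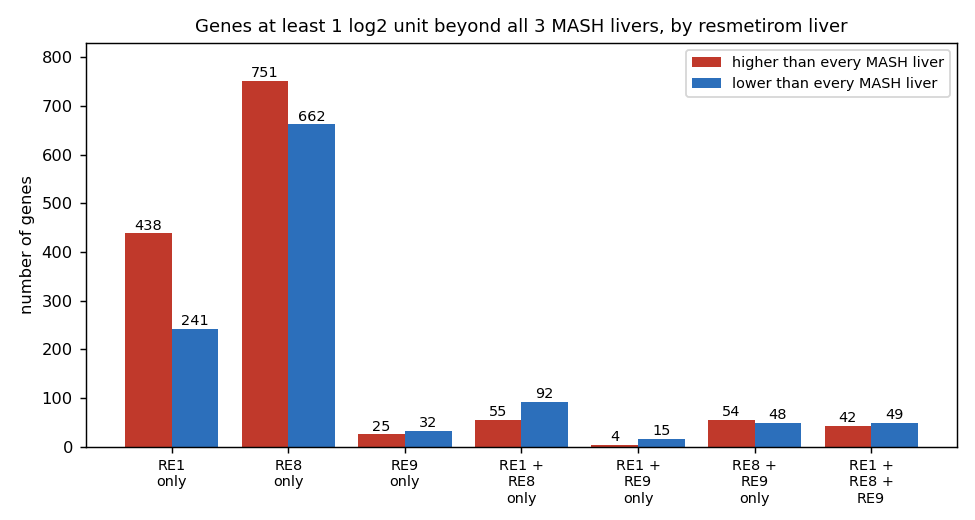
Number of genes (vertical axis) at least 1 log2 unit above (red) or below (blue) all 3 MASH livers, by the resmetirom livers in which this was so. RE8 alone has 751 higher and 662 lower genes, RE1 alone 438 and 241, and all 3 livers together 42 and 49.

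RE1 stood apart by cell cycle, matrix and macrophage genes. Among its largest own rises were Knstrn and Kif20a, of the mitotic spindle, and the macrophage elastase Mmp12. Kif20a was 0.804, 1.13 and 0.976 CPM in the MASH livers and 19.1, 1.12 and 1.28 CPM in RE1, RE8 and RE9, and Mmp12 was 3.08, 2.55 and 3.90 against 33.6, 0.375 and 1.18 CPM. All 31 tested genes of extracellular matrix and fibrosis had a positive group difference, but the medians per liver were 1.65, -0.49 and -0.31, positive in RE1 and negative in RE8 and RE9. Col1a1, the main chain of type I collagen, was 14.7, 10.7 and 22.1 against 90.4, 9.14 and 7.54 CPM, above the MASH livers in RE1 and below them in RE8 and RE9. Its group difference of 1.18 log2 units became -0.93 without RE1. The cell cycle list had medians of 1.58, 0.12 and -0.02 in RE1, RE8 and RE9. In these lists edgeR called 0 genes, and the other counts were 3 higher and 0 lower at an unadjusted p below 0.05 by edgeR, 0 and 0 by DESeq2, 0 and 0 by limma voom and 1 and 0 by limma voom with quality weights for matrix and 12 higher and 0 lower at an unadjusted p below 0.05 by edgeR, 5 and 0 by DESeq2, 0 and 0 by limma voom and 0 and 0 by limma voom with quality weights for cell cycle, against 8.18% of all genes higher at an unadjusted p and 2.32% by DESeq2. Summed Kupffer cell markers were 1001, 399.9 and 512 CPM in RE1, RE8 and RE9 and 407 to 502 CPM in the MASH livers, and monocyte and macrophage markers were 454, 106 and 151 against 181 to 252 CPM. RE1 was lowest in the P450 genes Cyp2e1, Cyp2c37 and Cyp2c54, and Cyp2e1 was 6550.0, 7303 and 8054 against 956, 4898 and 4974 CPM. The part of these cell markers in the gene differences of RE1 was not tested.

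RE8 stood apart by its Mup genes, which took 35.7% of its counts, against 8.90% in RE1 and 16.0% in RE9. Of 20 tested Mup genes, 17 were above every MASH liver in RE8, 13 in RE9 and 6 in RE1, and the family's members share reads. Below every MASH liver were 1 in RE8, 3 in RE9 and 4 in RE1, so RE1 was mixed. The matching share of all genes in a single liver was not counted, so these numbers of Mup genes are given only as a description. Mup8 was 19.2, 67.9 and 11.6 CPM in the MASH livers and 57.7, 9692 and 128 CPM in RE1, RE8 and RE9. Among its own lower genes were Cyp4a14, a PPAR alpha target, at 906, 294 and 694 against 159, 0.300 and 39.6 CPM, and Mfsd2a, which carries lysophosphatidylcholine, at 98.0, 131 and 123 against 51.1, 0.899 and 48.6 CPM. Nuclear oxidative phosphorylation genes had medians of -0.12, 1.00 and 0.38 in RE1, RE8 and RE9, with 5, 25 and 26 of 28 genes positive. Over all 13988 genes tested, 7242, 6597 and 6866 were positive. These values rest on TMM factors of 1.41, 0.663 and 1.07 in RE1, RE8 and RE9. The group median of the oxidative phosphorylation list was 0.47 log2 units. With no scaling factors it was 0.15, where the median over all genes tested was -0.13. In that list edgeR, DESeq2 and limma voom called 0 genes, and limma voom with quality weights called 3 higher, against 3.02% of all genes. Wholly above the MASH livers lay 3 of the 28, against 11.6% of all genes tested. Without the Mup and mitochondrial genes the edgeR test called 90 genes, 88 of them among the 93.

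RE9 had smaller differences of its own. It was highest in Acss2, which makes acetyl-CoA from acetate, at 202, 228 and 220.1 against 113, 229.5 and 507 CPM, and in Pnpla3, a lipogenic target, at 0.804, 0.126 and 0.391 against 0.231, 0.974 and 4.20 CPM. It was lowest in the acute phase gene Saa1, at 70.2, 69.8 and 179.5 against 46.5, 46.1 and 18.0 CPM. The plot of gene lists by liver sets these patterns side by side.

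**Figure D4:**
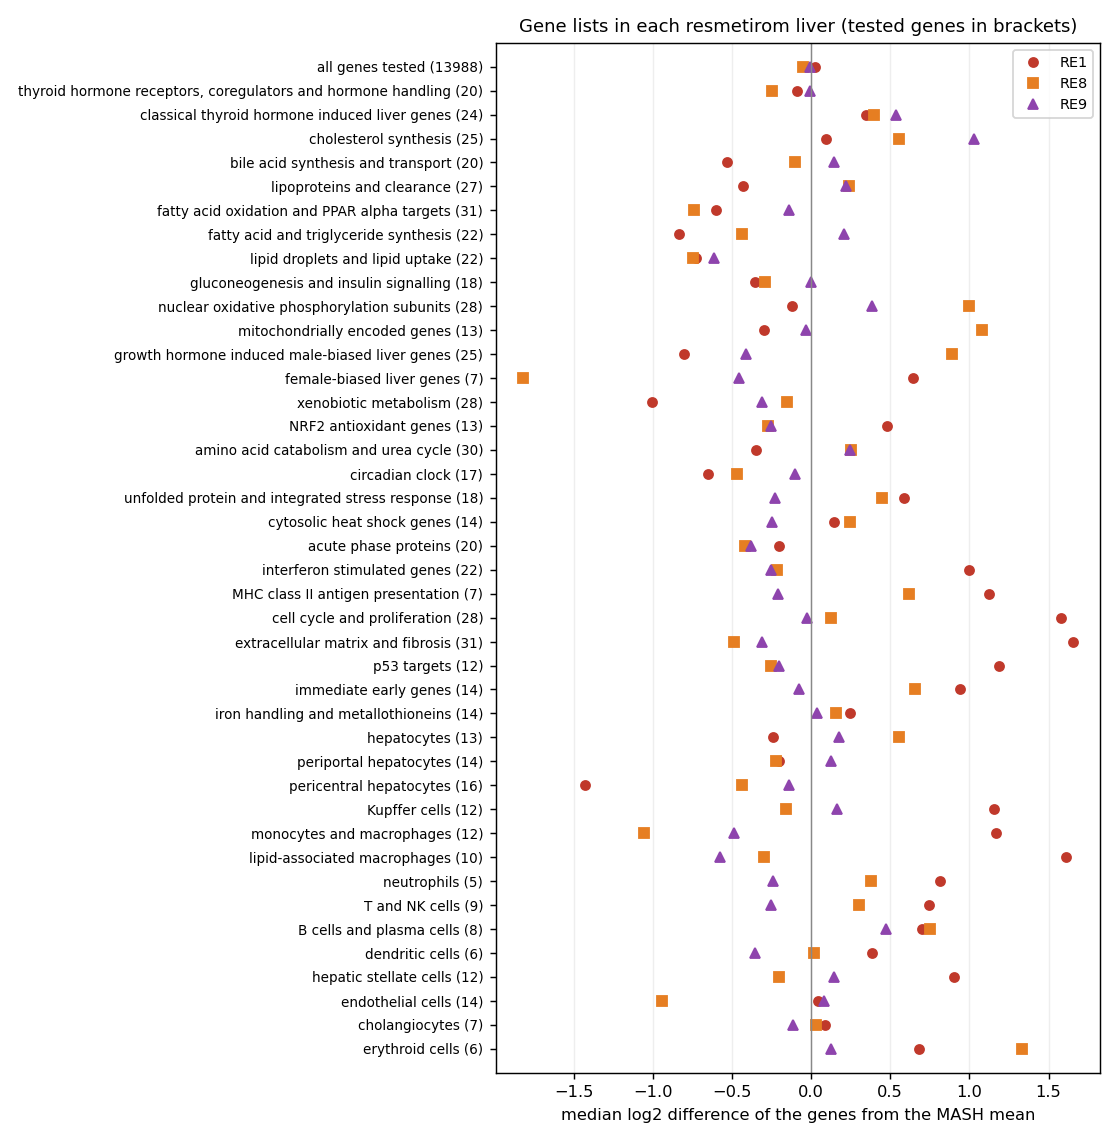
Median log2 difference from the MASH mean (horizontal axis, TMM-scaled) over the tested genes of each list (number in brackets) in RE1, RE8 and RE9. Lipid droplet genes lie left of 0 and thyroid hormone induced genes right of 0 in all 3 livers, while matrix, cell cycle and macrophage lists lie far right in RE1 only.

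Lymphocyte genes gave calls in both directions. Ighm and Igha, immunoglobulin heavy chains of B lineage cells, rose, at 6.91, 4.64 and 7.07 against 12.6, 128 and 101 CPM and 0.710, 1.13 and 0.820 against 45.6, 21.4 and 9.84 CPM, with adjusted p-values of 0.0439 and 0.0155 by edgeR. Ighm was highest in RE8 and Igha in RE1, and reads of immunoglobulin genes can be shared. The 10 B lineage markers summed to 10.1 to 14.4 CPM in the MASH livers and 50.2, 159.9 and 115 CPM in RE1, RE8 and RE9, with none at 0 in all 6 livers. Ighm is itself in that sum and most of it in RE8 and RE9, so the sum is not separate from its call. Of the 8 markers tested, 3 lay wholly above the MASH livers, Ighm, Igkc and Jchain, against 11.6% of all genes tested. Cd79b overlapped, at 0.615, 0.711 and 1.33 against 1.89, 1.65 and 1.08 CPM. Themis, a T cell signalling protein, fell, at 1.70, 8.45 and 7.65 against 0.193, 0.150 and 0.0513 CPM, with an adjusted p of 0.0155 by edgeR. The summed T and NK cell markers, 6.10 to 25.7 CPM in the MASH livers and 14.6, 18.1 and 5.54 CPM in RE1, RE8 and RE9, overlapped between the groups. Cela2a, a pancreatic elastase, also rose, at 0.189, 0.0836 and 0.117 against 1.81, 18.4 and 1.38 CPM. Of the other acinar markers, Cela1 was 17.2, 19.9 and 11.4 against 5.32, 89.5 and 45.1 CPM and the rest were at or near 0. The part of other cell types in these calls was not tested.

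A scaling factor shifts all genes of 1 library together, and the factors differed between libraries. TMM factors were 1.41, 0.663 and 1.07 in RE1, RE8 and RE9 and 1.22, 1.15 and 1.22 in M2, M6 and M7. Medians and distances of single livers were read only on TMM-scaled values, so their dependence on scaling was not tested. With no scaling factors the median over all genes tested was -0.13 rather than 0.06 log2 units, and the edgeR test called 38 genes, 32 of them among the 93. Medians of the thyroid hormone induced, cholesterol synthesis and lipid droplet lists were then 0.20, 0.39 and -0.83, on the same side of 0 as before.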

How the data were processed

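Liver mRNA of 12 samples was sequenced as stranded paired-end libraries, per the labels' protocols. The authors deposited a gene table of expected counts for the 12 libraries, unnormalised and not always whole. GRCm39 and fastp are named in the submitters' processing notes, while no source used here gives the counting tool or its strand setting. Counts were rounded to whole numbers, genes were filtered with filterByExpr by group, and edgeR 4.0.16 in R 4.3.3 fitted 1 quasi-likelihood model to all 12 libraries (TMM scaling, 8 residual degrees of freedom). The contrast was resmetirom minus MASH, and genes with a Benjamini-Hochberg adjusted p below 0.05 were called. DESeq2 1.42.0 and limma 3.58.1 (voom) were alternatives. The script was tested on simulated data.

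CPM values are TMM-scaled, and differences of single livers use log2(CPM + 0.5). A group with no count was set at 3 counts in all for a bound on its fold. The genes named by rule were the 10 highest and 10 lowest called genes, the 10 in each direction with the widest gap between groups, up to 5 per direction in each liver alone, up to 4 of each list by smallest p, and a fixed set from thyroid hormone, cholesterol and lipid metabolism. The members, the rule and the 27 function and 18 marker lists were chosen with earlier results of these data known. Other called genes, named by their role, were chosen after their values were seen. Unnamed gene models and pseudogenes were left out of the ranked genes. Some genes that the rule selects are not reported here. Lists are described by counts and medians, without a test. In the compared livers 1 CPM stood for at least 13.35 counts. Promoter sequences are RefSeq's on GRCm38.p6, which is not the build of the counts, so no coordinates are given for the counted genes.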

Additional observations from a re-analysis of the deposited data

How the results depend on the processing

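The number of genes called between resmetirom and MASH livers was 93, and it moved by more than 1.5 times under many settings. The edgeR test called 38 genes with no scaling factors, 243 with no filter on low counts, 0 with only the 6 compared libraries (adjusted p 0.0553 for Ntrk2) and 467 without control 1 and RE8 together. DESeq2 called 657 genes and limma voom with quality weights 809. Leaving out 1 library at a time gave 1 to 431 calls. Settings added after seeing the data, each with only the 6 compared libraries, gave 133 calls without RE1, 302 by limma voom with quality weights and 507 by DESeq2. A replicate block with only the 6 compared libraries gave 27. The other settings were another scaling, limma voom, a stricter filter, the block over 12 libraries and the removal of Mup and mitochondrial genes, and they stayed within 1.5 times. The 91 genes at least 1 log2 unit beyond every MASH liver in each resmetirom liver became 343 at a distance of 0.5 and 16 at a distance of 2. The cause of these shifts was not tested, except that a wider distance admits fewer genes by construction. Depth limits genes near 1 CPM, which stood for as few as 13.35 counts.

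The labels do not say that replicate numbers pair the samples, and 3 correlations cannot settle it. The deviations of resmetirom and MASH livers with the same number correlated at 0.150, 0.203 and 0.003, and 2 of the 3 resmetirom livers correlated best with their own number. The block gave 112 calls over the 12 libraries.

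Over 99 named genes and 2757 values, 2065 kept their direction and side of the threshold, 531 lost the call, 143 gained it and 18 reversed. On log2 differences, the fits that each left out 1 library ran from -0.35 to 0.77 for Acss2, from -0.93 to 1.65 for Col1a1 and from -0.0605 to 0.36 for Klf9. They ran from -0.0863 to 0.46 for Me1, from -1.98 to 2.44 for Mmp12 and from -0.91 to 0.21 for Thrsp. With no scaling factors Klf9 was -0.0425 and Thra -0.0444. By limma voom with quality weights, Col1a1, Klf9 and Mmp12 were -0.39, -0.30 and -0.77 over 12 libraries and -0.30, -0.28 and -0.67 over the 6 compared. With only those 6 and without RE1, Col1a1, Mmp12 and Thrsp were -0.93, -1.96 and 0.20. A replicate block over only the 6 compared libraries gave -0.20 for Mmp12.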
